A study of Mus musculus with 22 samples.

Results

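A block of 9 neighbouring genes around Igf2r on mouse chromosome 17 was followed across all 22 arrays of a study of males that carry an extra copy of the proximal part of this chromosome. The genes were chosen by their place in and around the imprinted domain of Igf2r inside the trisomic segment, and Mas1 was selected on its measured rise in trisomic spermatids, so that this rise is given as a description only. Of the 9, the 6 genes Agpat4, Map3k4, Plg, Slc22a2, Igf2r and Mas1 each had 1 named probe set, among 15780 named genes, while Airn, Slc22a3 and Acat2 were not analysed here. Male mice aged 2 months had either the trisomic genotype Ts43H or the euploid genotype t121/D17. Liver, pre-mid-pachytene spermatocytes and spermatids each had 3 arrays per genotype, and mid-late-pachytene spermatocytes had 2. Germ cells were isolated from suspensions of testicular tubules by fluorescence-activated sorting, and 20 to 30 ng of RNA went into a labelling protocol of repeated amplification. The labels do not spell out what t121/D17 denotes, do not say from which parent the extra copy came, and leave unstated if a group's arrays represent different animals, so the p-values measure only the spread between these samples, which may be technical. The arrays had medians of 4.10 to 4.69 on the log2 scale, and arrays of 1 group correlated at 0.988 to 0.997 across genes.

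Imprinted genes are read from the copy of only 1 parent. At this locus in the mouse, most tissues read Igf2r from the maternal copy, while the long non-coding RNA Airn is made from the paternal copy and silences Igf2r, and in the placenta also Slc22a2 and Slc22a3, on that copy. Igf2r encodes the receptor that carries lysosomal enzymes tagged with mannose 6-phosphate and that removes the growth factor IGF2 from the cell surface, and Mas1 encodes a G protein-coupled receptor for a short angiotensin peptide that is known for its expression in brain and testis. The arrays do not tell maternal from paternal transcripts.

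The start sites of the 2 genes that give the locus its name differ in base composition, and their windows from 250 bases before to 50 bases after the start site, taken from RefSeq on GRCm38.p6, are printed to show this. Igf2r lies on the minus strand at chr17:12769657-12769956, and Mas1 on the minus strand at chr17:12868094-12868393. Capitals mark the E-box core CACGTG and the shorter motif TGACG in Igf2r, which overlap each other in part, and CCAAT and the SOX core ACAAT in Mas1, each on either strand.
Igf2r: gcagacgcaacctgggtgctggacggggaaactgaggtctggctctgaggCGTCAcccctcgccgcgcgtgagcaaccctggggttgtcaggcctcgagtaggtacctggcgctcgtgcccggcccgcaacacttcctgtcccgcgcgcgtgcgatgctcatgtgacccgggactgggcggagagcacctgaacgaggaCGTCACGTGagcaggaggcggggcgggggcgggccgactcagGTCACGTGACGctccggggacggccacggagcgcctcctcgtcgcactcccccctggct
Mas1: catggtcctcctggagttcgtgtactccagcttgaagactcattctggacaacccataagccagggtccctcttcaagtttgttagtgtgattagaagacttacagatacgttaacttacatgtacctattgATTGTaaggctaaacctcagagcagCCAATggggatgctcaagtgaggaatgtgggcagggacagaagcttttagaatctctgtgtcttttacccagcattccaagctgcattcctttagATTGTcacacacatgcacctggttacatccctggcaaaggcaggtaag
The Igf2r window held 34 CpG dinucleotides at 70.7% G and C, against 2 CpG dinucleotides at 46.0% in the Mas1 window. The median over 32851 promoter windows of the same length was 7 CpG dinucleotides and 52.7%. CACGTG was found at 2 places in Igf2r, 1 of them with GT before it and AC after it, and in 7.15% of all windows, while this longer form was found in 0.326%. TGACG was found at 3 places in Igf2r and in 20.8% of all windows. In Mas1, CCAAT was found at 1 place and ACAAT at 2, against 37.4% and 31.0% of all windows with a match. The full site TGACGTCA, present in 1.79% of windows, was not among the letters of either. Matches to letters describe the windows only.

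The 6 genes had different levels and different cell types. Values are log2 intensities, and a value under 3 is called the background range. Mas1 had its highest level in spermatids, Igf2r was measured in liver and pre-mid-pachytene spermatocytes, Plg in liver, and Map3k4 in all 4 cell types. Agpat4, an acyltransferase that makes phosphatidic acid from lysophosphatidic acid, stayed between 4.44 and 4.89 on all 22 arrays. Slc22a2, an organic cation transporter best known from kidney, lay between 1.79 and 1.87 on all 22 arrays, within the background range, and was tested in no comparison.

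Igf2r was high in euploid liver, at 8.37, 8.33 and 8.85 (mean 8.52 ± 0.29, SD, n = 3), and in euploid pre-mid-pachytene spermatocytes, at 7.91, 7.78 and 8.04 (7.91 ± 0.13, SD, n = 3). Later germ cells held it in the background range, at 2.32 and 2.12 in euploid mid-late-pachytene spermatocytes and at 2.53, 2.16 and 2.57 in euploid spermatids. No array of these later cells overlapped the earlier ones. Since the later cells were in the background range, no size or test is given for that difference. For liver minus pre-mid-pachytene spermatocytes Igf2r gave 0.61 (SE 0.204, adjusted p = 0.0106, 86.9% of tested genes differed). Leaving out replicate 3 of euploid liver gave 0.44 and ended the call (adjusted p = 0.0673), and it was 0.98 with arrays centred on the autosomal median. Sertoli cells nurse the germ cells, and the summed level of their markers moved along the same stages. On the log2 scale it was 13.21 to 13.75 in euploid pre-mid-pachytene spermatocytes, 9.12 to 9.79 in mid-late-pachytene spermatocytes and 9.26 to 10.11 in spermatids. Such a sum follows the most abundant markers. The median level of the markers moved little, at 3.36 to 3.97, 2.91 to 3.08 and 3.02 to 3.41 in the same order. Of the 9 Sertoli markers on the array, the 3 markers Amh, Gata4 and Fshr were in the background range on every euploid pre-mid-pachytene array. Spermatogonia markers also fell over these euploid stages, with summed levels of 14.62 to 14.83, 11.26 to 11.29 and 8.77 to 9.7. Early meiotic prophase markers did so too, at 16.81 to 17.11, 15.61 to 15.9 and 14.75 to 14.9. Pachytene spermatocyte markers were lowest at the first of these stages (16.29 to 16.53). Round and elongating spermatid markers were highest at the last (16.99 to 17.26 and 18.23 to 18.41). The part of Sertoli RNA or of any germ cell stage in the Igf2r level was not tested. In sorted cell populations fewer cells of a type and less RNA per cell cannot be told apart.

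Mas1 followed the opposite course in euploid germ cells. It measured 3.71, 3.93 and 4.25 in pre-mid-pachytene spermatocytes, 4.93 and 4.81 in mid-late-pachytene spermatocytes, and 6.96, 7.05 and 6.09 in spermatids. Liver arrays stood at 3.99, 3.75 and 3.92. The 3 spermatid arrays lay above every other euploid array, and liver and pre-mid-pachytene arrays overlapped. Mid-late-pachytene spermatocytes lay above pre-mid-pachytene spermatocytes, with a difference of 0.91 (SE 0.314, adjusted p = 0.0132, 78.9% of tested genes differed). This call was lost without euploid mid-late-pachytene replicate 1 (0.85, adjusted p = 0.0671). Liver minus mid-late-pachytene spermatocytes gave -0.98 (SE 0.314, adjusted p = 0.00714), and 88.9% of the genes tested between these cells differed. In both comparisons Mas1 was tested only through its mean of 4.87 in mid-late-pachytene spermatocytes. Its means of 3.96 in pre-mid-pachytene spermatocytes and 3.89 in liver were under the minimum of 4. The level in euploid spermatids, 6.70 ± 0.53 (SD, n = 3), is given as a description without a test, because spermatids were used to choose Mas1.

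Map3k4, a kinase at the head of stress-activated kinase cascades, was present throughout, between 7.74 and 9.27 on all 22 arrays. Its euploid level was highest in mid-late-pachytene spermatocytes, at 8.98 and 8.84, above every other euploid array. These cells exceeded pre-mid-pachytene spermatocytes (7.74, 7.97 and 8.20) by 0.94 (SE 0.181, adjusted p = 1.1e-04). Liver minus mid-late-pachytene spermatocytes gave -0.55 (SE 0.174, adjusted p = 0.00714), which did not pass with quantile normalization (-0.25, adjusted p = 0.193) or without euploid mid-late-pachytene replicate 1 (-0.48, adjusted p = 0.0566). Spermatids minus mid-late-pachytene spermatocytes gave -0.74 (SE 0.18, adjusted p = 0.00149, 64.9% of tested genes differed). Next in order was liver, with a difference from pre-mid-pachytene spermatocytes of 0.40 (SE 0.156, adjusted p = 0.0243). The call was lost when replicate 1 of euploid liver (0.32, adjusted p = 0.0945) or replicate 1 of the euploid pre-mid-pachytene arrays (0.28, adjusted p = 0.125) was left out and on the arrays of these groups alone (adjusted p = 0.0792), and it was 0.78 with centring. Liver and spermatids, neighbours in the order of its levels, did not differ beyond their spread (0.19, SE 0.156, adjusted p = 0.244, 91% of tested genes differed), but did with quantile normalization (0.47, adjusted p = 0.00971) and with centring (0.42, adjusted p = 0.0197). Spermatids and pre-mid-pachytene spermatocytes did not pass (0.20, SE 0.162, adjusted p = 0.246, 85.1% of tested genes differed). Plg, the precursor of the clot-dissolving enzyme plasmin and a product of hepatocytes, reached 15.68, 15.75 and 15.65 in euploid liver and 1.93 to 1.98 on the 16 germ cell arrays. The 9 hepatocyte markers on the array had a summed level of 18.95 to 19.07 in euploid liver and at most 5.72 in any germ cell array. Plg therefore gives a level only in liver.

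**Figure D1:**
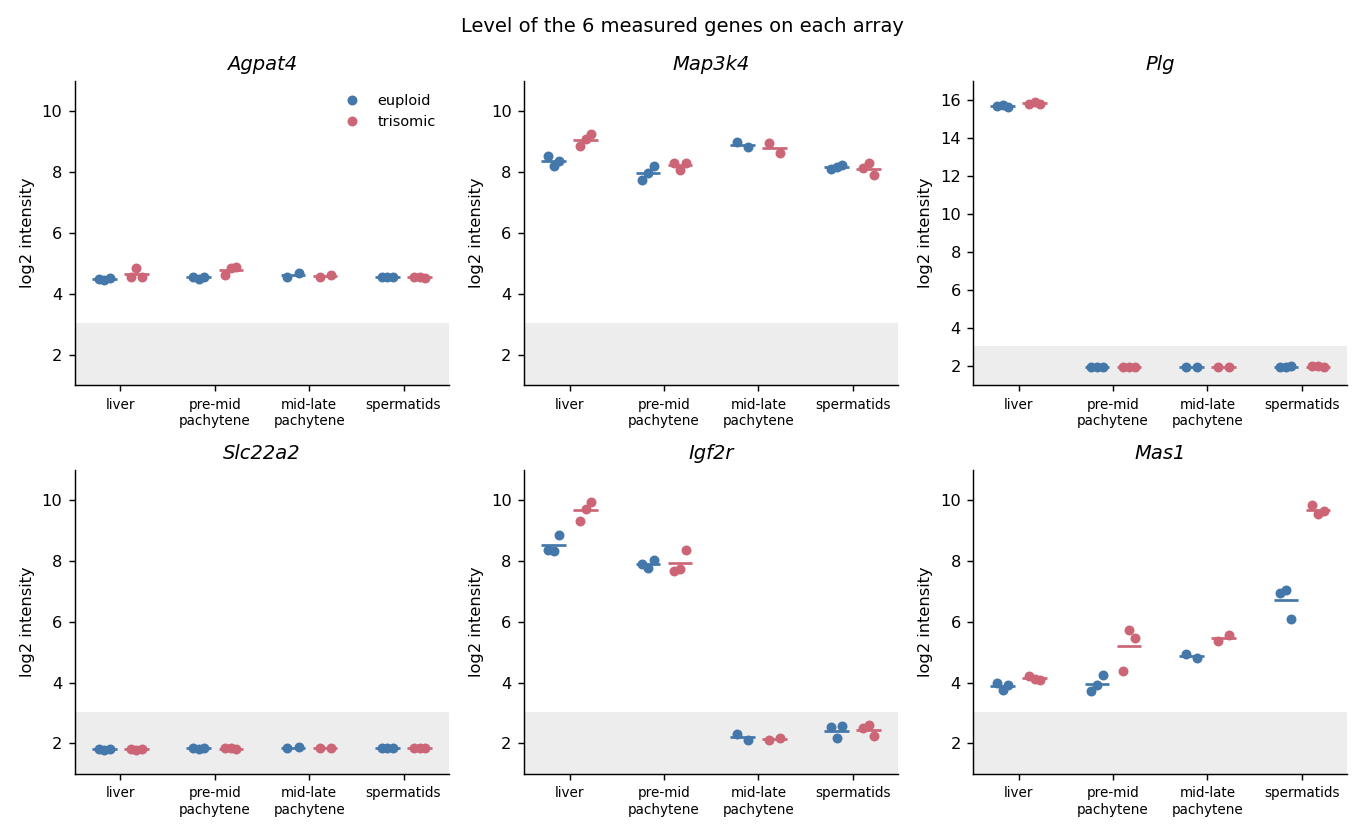
Level of the 6 measured genes on each array (vertical axis, log2 intensity; the Plg panel has its own scale) by cell type, with euploid arrays in blue and trisomic arrays in red; bars are group means and the grey band is the background range under 3. Mas1 lies between 9.53 and 9.83 on the 3 trisomic spermatid arrays, Igf2r is in the grey band in mid-late-pachytene spermatocytes and spermatids, and Slc22a2 is in it everywhere.

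In liver, the extra copy went with more Igf2r and Map3k4 RNA, while Plg, Agpat4 and Mas1 did not pass the test. Igf2r measured 9.33, 9.70 and 9.95 on the trisomic arrays, all above the 3 euploid arrays. It rose by 1.14 (SE 0.203, 95% confidence interval 0.72 to 1.57, adjusted p = 0.00132 in limma), a fold of 2.21. A change in proportion to 3 copies over 2, with every copy read alike, would be 0.58 on this scale. The interval for Igf2r lies above it. The copies of an imprinted gene are not read alike, and the parent of the extra copy is not known here. The 0.58 is therefore not the change that dose alone would give for Igf2r. Map3k4 measured 8.86, 9.09 and 9.27 against 8.53, 8.20 and 8.37, without overlap, and rose by 0.71 (SE 0.154, interval 0.39 to 1.03, adjusted p = 0.00619), a fold of 1.63. The 2 of 5 tested genes that rose stand beside 5.77% of all 8180 genes tested in liver that rose and 9.55% that changed in either direction.

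Plg stood at 15.79, 15.92 and 15.81 in trisomic liver. Its difference was 0.15 (SE 0.0891, interval -0.04 to 0.34, adjusted p = 0.372), and the interval lies below 0.58. The highest value of any probe set on any array was 16.75, and compression of values near that end of the scale was not tested. Agpat4 differed by 0.17 (SE 0.108, interval -0.055 to 0.40, adjusted p = 0.394), and its interval also lies below 0.58. Its values stayed between 4.44 and 4.89 on all 22 arrays, close to the minimum of 4. Whether so flat a probe set can show a change of dose was not tested, so nothing is concluded from that interval. Mas1, at 4.23, 4.13 and 4.07 in trisomic liver, differed by 0.25 (SE 0.279, interval -0.33 to 0.84, adjusted p = 0.69), and that interval includes both 0 and 0.58. The euploid mean of Mas1, 3.89, was under the minimum of 4 that a gene needed over both genotypes to be tested. The trisomic and euploid liver arrays did not overlap for any of the 5 tested genes, against 11.8% of all tested genes with every trisomic array higher.

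With the spread estimated from the 6 liver arrays alone, neither call held (Igf2r adjusted p = 0.0959, Map3k4 adjusted p = 0.129), and 19 genes in all passed against 781. Among the 9 hepatocyte markers none passed in liver with limma, with 1 at an unadjusted p under 0.05, and their summed level was 18.94 to 19.04 in trisomic liver. For red blood cells 2 markers were on the array, and Slc4a1 was in the background range on every liver array. The other, Alas2, was tested and fell. The summed levels of 12.27 to 12.96 in euploid and 10.55 to 11.55 in trisomic liver are thus in the main those of Alas2. Of 3 tested stromal markers 1 rose, with summed levels of 13.11 to 13.22 and 13.28 to 13.45. The part of blood or stromal cells in the Igf2r and Map3k4 changes was not tested.

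Igf2r behaved differently in pre-mid-pachytene spermatocytes, the other cell type in which it was above background. Trisomic arrays stood at 7.66, 7.74 and 8.36, a range that spans the euploid one. The difference was 0.0088 (SE 0.207, interval -0.43 to 0.44, adjusted p = 0.988), so the interval lies below 0.58. The effect in liver exceeded that in pre-mid-pachytene spermatocytes by 1.13 (SE 0.29, interval 0.53 to 1.74, adjusted p = 0.0307 for the interaction), and Igf2r was the 1 gene of 4 tested that passed, against 5.21% of 6510 genes. Of the 12 fits that each left out 1 array of these groups, the call was lost in 8, namely without euploid liver replicates 1 and 2, trisomic liver replicates 2 and 3, euploid pre-mid-pachytene replicates 1 and 3 and trisomic pre-mid-pachytene replicates 1 and 2, and the difference then ran from 0.99 to 1.14 with adjusted p from 0.0542 to 0.0904. It did not hold on the arrays of these groups alone either (adjusted p = 0.0832). In mid-late-pachytene spermatocytes (2.12 and 2.18 in trisomic males) and spermatids (2.52, 2.59 and 2.24) Igf2r was in the background range in both genotypes and was not tested.

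Mas1 was the measured gene of the locus that rose in trisomic pre-mid-pachytene spermatocytes. Its trisomic arrays stood at 4.39, 5.73 and 5.48, above the 3.71 to 4.25 of the euploid arrays, with replicate 1 close to them. The rise was 1.24 (SE 0.28, interval 0.65 to 1.83, adjusted p = 0.0121 in limma), a fold of 2.36, and the interval lies above 0.58. This interval rests on the spread pooled over all 8 groups. The SD of Mas1 in these cells was 0.71 in trisomic and 0.27 in euploid arrays, and no interval from them alone is given. Without trisomic replicate 2 it was 0.97 and did not pass (adjusted p = 0.0717), and it did not pass on the 6 arrays of this cell type alone (adjusted p = 0.132, 4 genes in all). Map3k4 (0.26, SE 0.161, adjusted p = 0.336), Agpat4 (0.25, SE 0.121, adjusted p = 0.212) and Igf2r did not pass, so that 1 of 4 tested genes rose, against 5.88% of 8384 genes that rose and 10.3% that changed. The euploid Mas1 mean of 3.96 was again under the minimum, and Mas1 was tested through the mean of both genotypes. With no minimum its adjusted p was 0.0234. Mas1 and Agpat4 had all trisomic arrays above all euploid arrays, against 20.8% of all tested genes.

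Markers of later germ cells were read on the same arrays. Of 9 round spermatid markers 3 fell in trisomic pre-mid-pachytene spermatocytes (median change -0.68, against 0.111 over all tested genes), and their summed level was 13.26 to 14.0 against 13.82 to 14.51 in euploid arrays. Elongating spermatid markers were abundant on these arrays in both genotypes, at 17.54 to 18.16 in trisomic and 17.69 to 17.95 in euploid males, and none of 9 passed with limma (0 at an unadjusted p under 0.05). That is near their level in the spermatid arrays, at 17.74 to 18.32 in trisomic and 18.23 to 18.41 in euploid males. Mid-late-pachytene arrays had less, at 13.93 to 14.23 in trisomic and 13.9 to 15.1 in euploid males. Among the 3 trisomic pre-mid-pachytene arrays, replicate 1 had the lowest summed level of both lists (13.26 and 17.54) and the lowest Mas1. Replicate 3 had the highest sums (14.0 and 18.16), but its Mas1 of 5.48 was below the 5.73 of replicate 2. Among the euploid arrays replicate 2 had the highest sums (14.51 and 17.95), with Mas1 at 3.93 against 4.25 in replicate 3. The part of cell composition in the Mas1 change was not tested.

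The difference between liver and pre-mid-pachytene spermatocytes in the effect on Mas1 was -0.98 (SE 0.393, interval -1.81 to -0.16), which did not pass over all genes (adjusted p = 0.142). It passed without trisomic pre-mid-pachytene replicate 1 (-1.39, adjusted p = 0.032). In mid-late-pachytene spermatocytes Mas1 measured 5.38 and 5.58 in trisomic against 4.93 and 4.81 in euploid males. Its arrays did not overlap, and the difference of 0.61 (SE 0.343, interval -0.11 to 1.33, adjusted p = 0.818) did not pass. Map3k4 (8.95 and 8.62 against 8.98 and 8.84, difference -0.13, interval -0.54 to 0.29) and Agpat4 (difference -0.036, interval -0.34 to 0.27) did not pass either, and both intervals lie below 0.58. Limma called 0 of these 3 genes, with 0 at an unadjusted p under 0.05, against 0.965% of 8085 genes called. Map3k4 changed by 0.84 more in liver than in mid-late-pachytene spermatocytes (interval 0.31 to 1.36), which did not pass (adjusted p = 0.149, 0.924% of 6058 genes passed). Between mid-late-pachytene and pre-mid-pachytene spermatocytes limma called 0 of 3 differences in effect, with 0 at an unadjusted p under 0.05, against 0.108% of 7434 genes, and that of Mas1 was -0.63 (interval -1.55 to 0.30, adjusted p = 0.594).

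In spermatids the change of Mas1 is what chose it, and the values are given as a description. The 3 trisomic arrays stood at 9.83, 9.53 and 9.63, against 6.96, 7.05 and 6.09 in euploid males. The lowest trisomic array exceeded the highest euploid array, as in 7.45% of all tested genes. The difference of the means was 2.96 (SE 0.28), a fold of 7.80, the largest among 148 tested genes of the trisomic segment and the second of all 8283 tested genes. The next gene of the segment, Rab11fip3, differed by 1.18, and the median of the segment was 0.36. Map3k4 stood at 8.14, 8.30 and 7.92 against 8.10, 8.18 and 8.24, a difference of -0.053 (SE 0.161). Agpat4 differed by 0.008. The share of all genes called in this comparison was 0.821%, and 0.29% were called higher. Round spermatid markers summed to 16.91 to 17.18 in trisomic and 16.99 to 17.26 in euploid spermatids, and elongating spermatid markers to 17.74 to 18.32 and 18.23 to 18.41.

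**Figure D2:**
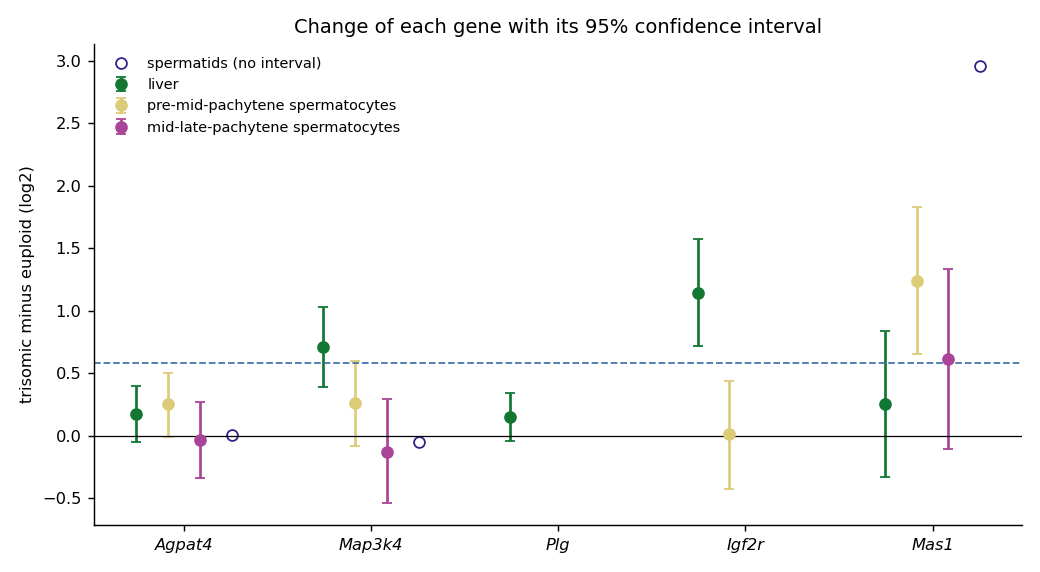
Difference of trisomic minus euploid (vertical axis, log2) for the 5 tested genes in each cell type where they were tested. Filled points are limma estimates with 95% confidence intervals from the spread pooled over all 8 groups, and open points are the spermatid values without an interval. The dashed line is 0.58, the change for 3 copies over 2 with every copy read alike, which need not hold for the imprinted Igf2r. The intervals of Igf2r in liver and of Mas1 in pre-mid-pachytene spermatocytes lie above the dashed line, and that of Igf2r in pre-mid-pachytene spermatocytes lies below it.

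The genes around the 6 were mostly higher in trisomic liver. The neighbourhood was taken as 25 further genes on the array, 5 that lie between the 6 in chromosomal order and 10 on each side. Of the 20 flanking genes 8 were tested in liver and all 8 rose, with a median change of 0.77, against 5.77% of all tested genes that rose. Smoc2, a secreted matrix protein, rose by 3.05 (adjusted p = 2.5e-04), from 6.03, 5.61 and 7.54 to 8.73, 10.36 and 9.23. 1600012H06Rik rose by 1.18 (adjusted p = 3.9e-05), the RNA-binding protein gene Qk by 1.08 (adjusted p = 0.0165) and Ezr, a linker of membrane and cytoskeleton, by 0.86 (adjusted p = 0.0445). Closest to Mas1 among the neighbours tested in liver, the mitochondrial ribosomal protein gene Mrpl18 rose by 0.57 (adjusted p = 0.0384), while the chaperonin subunit gene Tcp1 differed by -0.015 (SE 0.112, adjusted p = 0.968). The medians were 0.25 for the 5 tested genes of the locus, 0.67 for the 144 tested genes of the segment, of which 68 rose, and -0.013 for all tested genes.

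In germ cells fewer of the neighbours passed. In pre-mid-pachytene spermatocytes 3 of 15 tested neighbours rose, namely Tcte2 by 0.73 (adjusted p = 0.0342), Pabpc6 by 0.70 (adjusted p = 0.0398) and 1600012H06Rik by 0.65 (adjusted p = 0.0132). Over all genes tested in these cells 5.88% rose. Pnldc1, an RNA-trimming enzyme gene next to Mrpl18 that acts in piRNA maturation, differed there by 0.064. In mid-late-pachytene spermatocytes limma called 0 of 17 neighbours, with 2 at an unadjusted p under 0.05, against 0.965% of all tested genes called. Of the 17 neighbours 9 had no overlap between genotypes with trisomic arrays higher, against 17.7% of all tested genes. In spermatids the neighbours had a median difference of 0.36, with 1700010I14Rik at 0.63 and Mrpl18 at 0.51. Mrgprh, the gene next to Mas1 and from the same receptor family, lay between 1.90 and 2.01 on all 22 arrays and has no level to compare.

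Within the trisomic segment, taken as the 252 genes that start in the first 30 Mb of chromosome 17, Mas1 changed place from tissue to tissue. Ordered by the size of the rise, it was in place 121 of 144 in liver, 3 of 154 in pre-mid-pachytene spermatocytes and 28 of 144 in mid-late-pachytene spermatocytes. Ahead of it in pre-mid-pachytene spermatocytes were Gnptg at 1.51 and Mapk8ip3 at 1.34. Igf2r was in place 23 of 144 in liver and 112 of 154 in pre-mid-pachytene spermatocytes. Map3k4 was in place 63 of 144 in liver, near the median, and in place 136 of 148 in spermatids. The medians of the segment in the germ cells were 0.24, 0.30 and 0.36 in the order pre-mid-pachytene, mid-late-pachytene and spermatid.

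**Figure D3:**
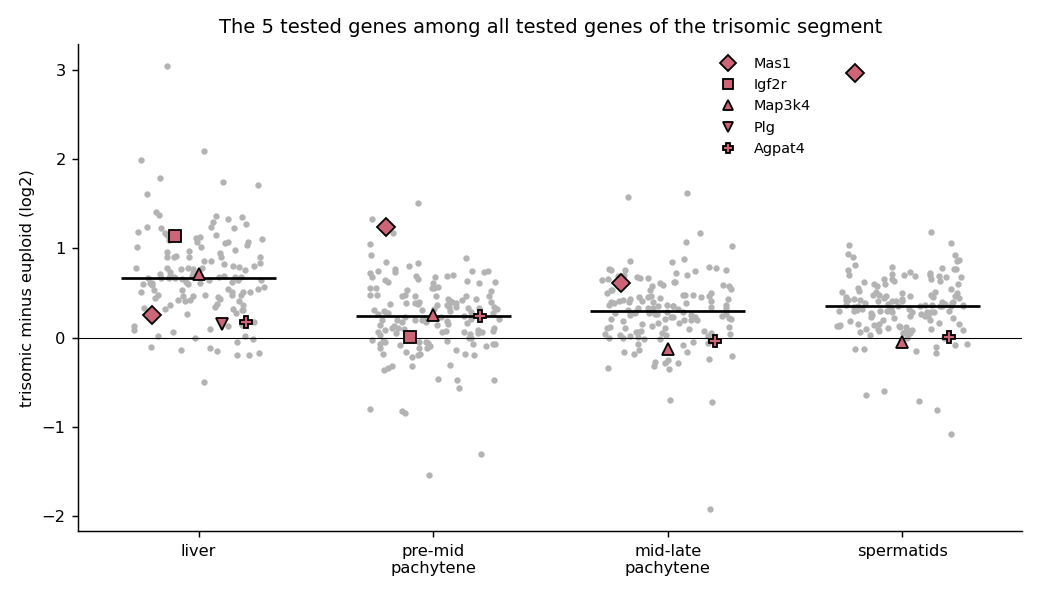
Difference of trisomic minus euploid (vertical axis, log2) of every tested gene of the trisomic segment by cell type, as grey points with the median as a black bar; the tested genes of the locus are drawn as red symbols. Mas1 lies below the median of 0.67 in liver and is the highest point in spermatids, and Igf2r lies above the median in liver and below the median of 0.24 in pre-mid-pachytene spermatocytes.

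The partners of these genes in their pathways were read from 7 lists. Of 22 tested genes around the mannose 6-phosphate and IGF2 receptor, 2 rose and 1 fell in liver (median change -0.04), against 9.55% of all tested genes that changed there in either direction. Gnptg, a subunit of the enzyme that makes the mannose 6-phosphate tag and itself a gene of the trisomic segment, rose by 1.30 (adjusted p = 0.0337). Igfbp3, a binding protein for insulin-like growth factors, rose by 0.52 (adjusted p = 0.0184), and the sorting adaptor Gga3 fell by 0.88 (adjusted p = 0.0119). Igf2, the ligand that Igf2r removes, was in the background range in liver, at means of 2.40 in both genotypes, and Igf1 was at 13.16 in trisomic and 13.35 in euploid liver. M6pr, the smaller receptor for the same tag, differed by 0.43 (adjusted p = 0.46). In pre-mid-pachytene spermatocytes, where Igf2r did not pass, Gnptg rose by 1.51 (adjusted p = 0.0158) and was the 1 of 16 tested genes of the list that passed. Over all genes tested in these cells 10.3% changed in either direction, so this count is no more than the general share.

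Among the genes of the renin-angiotensin system, in which Mas1 is a receptor, 1 of 9 tested genes fell in liver, the peptidase Thop1 (fold 0.5, adjusted p = 0.0291), a share near the 9.55% of all tested genes that changed. In germ cells limma called none of 7 tested genes in any cell type, with 1, 0 and 1 at an unadjusted p under 0.05 in the order pre-mid-pachytene, mid-late-pachytene and spermatid. Over all tested genes 10.3%, 0.965% and 0.821% were called in that order. The angiotensin receptor gene Agtr1a reached means of 10.93 in trisomic and 10.33 in euploid mid-late-pachytene spermatocytes (difference 0.60, adjusted p = 0.689) and of 11.38 and 11.06 in spermatids. Ace, which makes and breaks angiotensin peptides and has a testis form, stood at 8.86 and 9.11 in spermatids. The precursor Agt was at 12.59 and 12.26 in liver and in the background range in trisomic and euploid spermatids (2.56 and 2.82).

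For Plg, 3 of 9 tested genes of plasminogen activation rose in liver, the plasminogen receptor Plgrkt by 1.67 (adjusted p = 0.0128), the activator Plat by 1.25 (adjusted p = 0.0179) and the plasminogen-binding annexin Anxa2 by 0.93 (adjusted p = 0.00287). None of the 3 lies in the trisomic segment, and 5.77% of all genes tested in liver rose. Around Map3k4, 3 of 11 tested genes fell in liver, the kinases Map2k6 (-0.85, adjusted p = 0.0223) and Map2k3 (-0.75, adjusted p = 0.0384) and the transcription factor Atf2 (-0.74, adjusted p = 0.0336), the opposite direction to Map3k4 itself, against 9.55% of all tested genes that changed in either direction. Gadd45g, an activator of Map3k4 named after its values were seen, stood at 6.96 in trisomic and 9.25 in euploid liver and did not pass (adjusted p = 0.0667). Of 8 tested genes for phosphatidic acid synthesis beside Agpat4, Lclat1 rose in liver (0.62, adjusted p = 0.034). None of 10 tested genes of the mevalonate and thiolase list passed in liver with limma (2 at an unadjusted p under 0.05). Its members with the highest means, Acaa2 and Acat1, had log2 differences of 0.029 and -0.042. Slc47a1, the 1 tested organic cation transporter, differed by 0.29 (adjusted p = 0.0882). In pre-mid-pachytene spermatocytes Oxct1 of the mevalonate and thiolase list fell (-0.74, adjusted p = 0.0299), and in mid-late-pachytene spermatocytes Acaa2 of the same list rose by 1.18 (adjusted p = 0.0202).

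Likeness of pattern was measured as Pearson's r over the 22 arrays against 10155 genes whose highest array reached at least 6. The arrays share cell types and genotypes, so that r describes these groups. The genes most like Mas1 were 4930519F16Rik (r = 0.941, chromosome X), Umodl1 (0.915, chromosome 17 outside the segment), Chrna9 (0.911, chromosome 5), Six2 (0.91, chromosome 17 outside the segment) and Pi16 (0.908, inside the segment). They were picked on the same arrays as Mas1, so a high level in trisomic spermatids follows from the choice. The means in trisomic spermatids were highest for all 5, 4930519F16Rik at 6.36 against 4.32 in euploid spermatids and Pi16 at 5.50 against 4.56. None of the 6 genes of the locus was among the genes most like Igf2r, which were Sbk1, Fancf and Pdcl3, each with r = 0.993. These 3 were high in liver and pre-mid-pachytene spermatocytes and under 3 in the later germ cells, Fancf at 7.21 in euploid and 8.42 in trisomic liver.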

How the data were processed

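Values were the deposited log2 intensities of Affymetrix arrays, which the authors normalized with GCRMA, per the submitters' processing notes. Each gene had 1 probe set, and 759 of 16539 probe sets without a name in the platform annotation were not tested. Group means of the 22 arrays were fitted with limma 3.58.1 in R 4.3.3, with the spread pooled over all 8 groups, and p-values were adjusted by Benjamini-Hochberg over all tested genes at 0.05. For trisomic against euploid, a gene was tested where its mean over both genotypes in that cell type was at least 4. Differences of effect needed this mean in both cell types. Comparisons of euploid cell types needed a mean of at least 4 in either cell type, so a gene tested there could be in the background range in the other. Differences of effect were interaction contrasts, and summed marker levels are log2 of summed linear intensities. The genes, lists and comparisons were chosen with earlier results of these data known. Up to 4 genes with the largest change were named per list among those that passed, or up to 2 with the highest mean where none did. Igf2, Igf1, M6pr, Ace and Agt were added for their place in the pathways with their values known. The 10 genes on the array next to the locus on each side and those between its members formed the neighbourhood.

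Replicate numbers came from the labels. By their deviations, each euploid liver array was most like the trisomic array of the same number, with low correlations of 0.11, 0.31 and 0.15. In the germ cells this held only for pre-mid-pachytene replicate 1 (0.25) and spermatid replicate 2 (0.39). Alternatives were no minimum or a minimum of 6, quantile normalization, centring on the autosomal median, a trended and robust fit, the arrays of the compared groups only, all probe sets, a replicate block and leaving out each array. The fit was tested on simulated data. Promoter windows came from RefSeq on GRCm38.p6, and Plg had no entry. The number of arrays limits the precision. The part of sequence differences between the chromosomes under the probes was not tested.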

Additional observations from a re-analysis of the deposited data

Results flagged for a closer look

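The effect of the extra copy on Igf2r differed between liver and pre-mid-pachytene spermatocytes in the fit over all arrays, and this call was lost in 8 of 12 fits without 1 array of these groups and on these groups alone (adjusted p up to 0.0904). The interaction was 1.13 on the log2 scale (SE 0.29, adjusted p = 0.0307 in limma), from a rise of 1.14 in liver and a difference of 0.0088 in pre-mid-pachytene spermatocytes. All 3 trisomic liver arrays were above the 3 euploid ones, while the pre-mid-pachytene arrays overlapped.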

How the results depend on the processing

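Of the results on which the text turns, 178 values under the alternatives stayed within 1.5 times the reported count and 13 moved. These values include the spermatid comparisons used to choose Mas1. They also include euploid comparisons where Igf2r or Plg was in the background range in the other cell type. The 178 is therefore no measure of support for the genes of the locus. With only the arrays of the compared groups, 0 genes of the locus passed in liver, in pre-mid-pachytene spermatocytes and for the difference of effect between liver and pre-mid-pachytene spermatocytes in limma, where Igf2r had adjusted p = 0.0959 in liver and Mas1 had 0.132 in pre-mid-pachytene spermatocytes. A minimum mean of 6 left Mas1 untested in pre-mid-pachytene spermatocytes, and 0 genes passed. Leaving out 1 array gave 0 to 1 calls there and 0 to 1 for that difference, and the 1 call without trisomic pre-mid-pachytene replicate 1 was Mas1, not Igf2r. Leave-one-out values ran from 1.0 to 1.31 for Igf2r and from 0.61 to 0.81 for Map3k4 in liver, and from 0.97 to 1.64 for Mas1 in pre-mid-pachytene spermatocytes and from 2.66 to 3.14 in spermatids. With no minimum Plg passed in liver (adjusted p = 0.0262). The direction turned for small differences: Igf2r in pre-mid-pachytene spermatocytes was -0.0514 with quantile normalization, -0.0545 without euploid replicate 2 and -0.21 without trisomic replicate 3, with 0.1402 at the other end without trisomic replicate 1. In mid-late-pachytene spermatocytes Agpat4 ran from -0.0885 to 0.0168 without euploid replicate 1 or 2, and Map3k4 from -0.2946 to 0.039 without trisomic replicate 1 or 2. Among euploid cells Agpat4 turned to 0.328 and 0.324 for liver minus pre-mid-pachytene spermatocytes and to 0.1031 and 0.1657 for liver minus spermatids with quantile normalization and centring, and ran from -0.0115 to 0.0203 for spermatids minus pre-mid-pachytene spermatocytes without euploid pre-mid-pachytene replicate 2 or 1. The causes were not tested.

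Centring on the autosomal median moved the median of all tested genes to -0.109 in liver and 0.196 in pre-mid-pachytene spermatocytes, against -0.013 and 0.111. The replicate block, which pairs same-numbered arrays, changed no call among the genes of the locus (2, 1 and 0 calls in liver, pre-mid-pachytene and mid-late-pachytene arrays), with adjusted p = 0.00289 for Igf2r and 0.0225 for Map3k4 in liver, 0.0132 for Mas1 in pre-mid-pachytene spermatocytes and 0.03 for the Igf2r interaction. Over all genes, calls numbered 781 in liver (584 to 933 leaving out 1 array, 19 on the liver arrays alone), 867 in pre-mid-pachytene spermatocytes (250 to 1088, and 4), 78 in mid-late-pachytene spermatocytes (47 to 209, 9 with a minimum of 6 and 0 on their own arrays) and 68 in spermatids (56 to 89, 22 with a minimum of 6 and 1 on their own arrays). For the differences of effect they numbered 339 for liver minus pre-mid-pachytene spermatocytes (132 to 563), 56 for liver minus mid-late-pachytene spermatocytes (24 to 114) and 8 for mid-late-pachytene minus pre-mid-pachytene spermatocytes (2 to 301).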
